A study of Mus musculus with 8 samples.

Results

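The genes described here encode metalloproteinases that cleave extracellular matrix and cell-surface proteins, together with their tissue inhibitors. They are the matrix metalloproteinases (MMPs), the membrane-anchored ADAM proteases, the secreted ADAMTS proteases, the ADAMTS-like (ADAMTSL) proteins and the tissue inhibitors of metalloproteinases (TIMPs). They were chosen by symbol, as *Mmp*, *Adam*, *Adamts* or *Adamtsl* followed by a number, or *Timp1* to *Timp4*. The rule itself uses no measured value, but it was chosen with earlier results of these data known. The table of expression values held 54 such genes among 15880. These were 13 of the 23 MMP genes of the mouse annotation, 14 of 32 ADAM, 18 of 19 ADAMTS, all 5 ADAMTSL and all 4 TIMP genes. The remaining 29 genes were not in the table, which the authors had filtered on low counts, and among them were *Mmp3*, *Mmp10*, *Mmp25* and *Adamts13*. All 54 genes passed a filter that asked for a value above 2 in at least 2 libraries, which 1547 genes of the table did not.

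MMPs are made as inactive precursors and become active when their propeptide is removed, some of them inside the cell by furin-like convertases and others outside by plasmin or other MMPs. Together the families remodel collagen, proteoglycans and basement membranes, and ADAMs release growth factors, cytokines and receptors from the cell surface. In growing bones, collagenase and gelatinase activity accompanies the replacement of cartilage by bone and marrow. TIMPs bind the active site of MMPs, and *Timp3* also inhibits several ADAM and ADAMTS proteases.

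The study sorted stromal cells from the crushed, collagenase-digested bones of newborn C57BL/6 pups at postnatal day 1. All pups were heterozygous for Nes-Gfp, a transgene in which regulatory elements of nestin drive green fluorescent protein (GFP), so that the GFP mark reports the transgene and not the endogenous gene. Cells negative for CD45, CD31 and Ter119 were separated by GFP and by surface Pdgfrα into GFP- Pdgfrα-, GFP+ Pdgfrα-, GFP- Pdgfrα+ and GFP+ Pdgfrα+ cells. Each of these 4 populations had 2 libraries, each from a pool of 3 pups and from 15000 to 80000 cells, and the RNA was amplified before sequencing. The comparisons ask how the GFP+ and GFP- populations differ within the Pdgfrα+ and within the Pdgfrα- cells, and how the Pdgfrα+ and Pdgfrα- populations differ within the GFP+ and within the GFP- cells.

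Values are normalized read counts on a linear scale (reads plus 0.5, per 1e6 of the library's effective size), and whole reads could be recovered from them. The libraries held 3221217 to 5302762 reads on genes, and 3 reads, taken here as the floor of each library, correspond to values of 0.825 to 1.04. The floor and the counting intervals cover counting error only. A gene was called where limma, fitted on all 15880 genes with log2(value + 1), gave an adjusted p of at most 0.05. Errors of log2 fold changes are standard errors of that fit, which shares 1 estimate of the spread among the 8 libraries.

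The GFP- Pdgfrα- libraries stood apart from the other 6 in composition. The mitochondrial ribosomal gene *mt-Rnr2* took 27.2% and 29.1% of their reads, against 9.52% to 17.6% in the other libraries, and hemoglobin genes took 0.894% and 1.42%, against at most 0.0145%. The 54 genes took 0.0499% and 0.0475% of the reads in the GFP- Pdgfrα- cells, 0.309% and 0.343% in the GFP+ Pdgfrα- cells, 0.587% and 0.553% in the GFP- Pdgfrα+ cells and 0.604% and 0.567% in the GFP+ Pdgfrα+ cells. The labels were checked with the genes that define the sort. *Pdgfra* had values of 3.3 and 4.36 in the GFP- Pdgfrα- cells, 18.1 and 10.4 in the GFP+ Pdgfrα- cells, 839 and 794 in the GFP- Pdgfrα+ cells and 733 and 754 in the GFP+ Pdgfrα+ cells, with every Pdgfrα+ library above every Pdgfrα- library. Endogenous *Nes* had values of 3.59 and 9.08 in the GFP- Pdgfrα- cells, 149 and 176 in the GFP+ Pdgfrα- cells, 27.4 and 47.1 in the GFP- Pdgfrα+ cells and 57.6 and 72 in the GFP+ Pdgfrα+ cells, and each GFP+ population was above the GFP- population with the same Pdgfrα sort.

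Among the 4 populations the expression of most of these genes differed. The moderated F test of limma called 48 of the 54 genes, where it called 66% of all genes. These were 12 of 13 MMP, 10 of 14 ADAM, 18 of 18 ADAMTS, 5 of 5 ADAMTSL and 3 of 4 TIMP genes. The 6 genes not called were *Mmp28*, *Adam1a*, *Adam4*, *Adam8*, *Adam17* and *Timp4*. The highest mean lay in the GFP+ Pdgfrα+ cells for 22 genes, in the GFP- Pdgfrα+ cells for 17, in the GFP+ Pdgfrα- cells for 9 and in the GFP- Pdgfrα- cells for 6. The GFP- Pdgfrα- cells had the lowest mean for 43 genes.

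**Figure D1:**
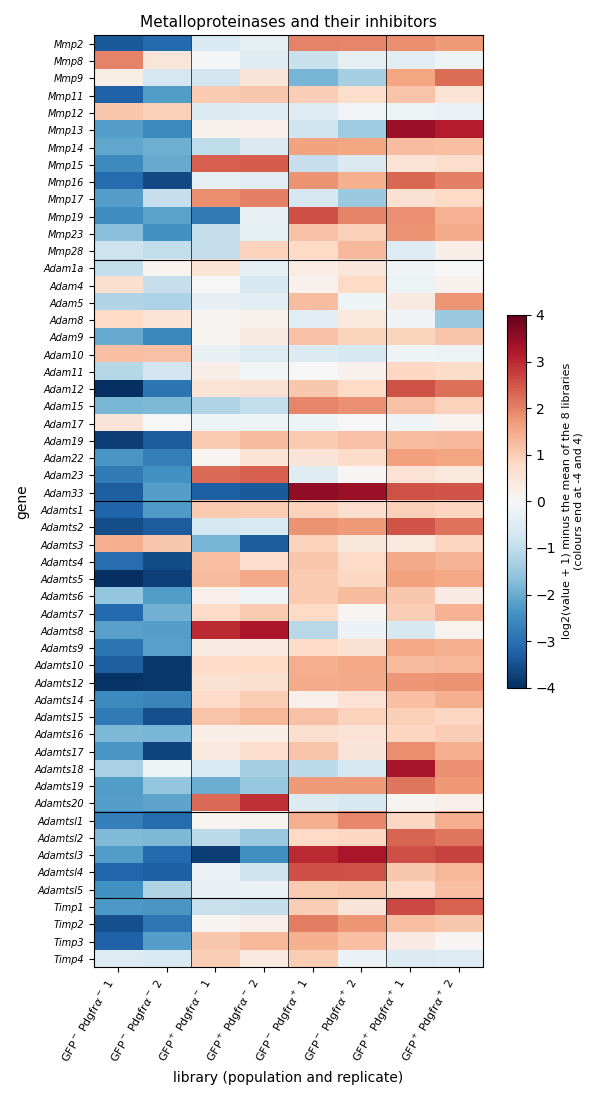
Heat map of the 54 genes (vertical axis, grouped by family) in the 8 libraries (horizontal axis). Colour gives log2(value + 1) minus the gene's mean over the 8 libraries, with the scale ending at -4 and 4; the GFP- Pdgfrα- libraries are the lowest for most genes, while *Adam10*, *Mmp8*, *Mmp12* and *Adamts3* have their highest mean there.

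In Pdgfrα+ cells few of the genes separated GFP+ from GFP- cells. Of the 54, 7 were called higher in the GFP+ Pdgfrα+ than in the GFP- Pdgfrα+ cells and 3 lower, where 3.22% of all genes were called higher and 2.13% lower. The genes called higher were *Mmp13*, *Mmp9*, *Adamts18*, *Mmp17*, *Timp1*, *Adamtsl2* and *Mmp15*, and those called lower were *Adamtsl4*, *Timp3* and *Timp2*. The median log2 fold change of the 54 genes was 0.26, against 0.00 over all genes. This count depended on the libraries in the fit. With the GFP- Pdgfrα- libraries left out, an alternative chosen after seeing the data, 17 genes were called, 12 higher and 5 lower, where 3.73% of all genes were higher and 3.36% lower. Dropping replicate 1 or 2 of the GFP- Pdgfrα- cells gave 16 (6.81% and 6.82% of all genes). It was 5 without either GFP+ Pdgfrα- library (3.99% and 3.95%) or GFP+ Pdgfrα+ replicate 2 (3.26%), and 3 without either GFP- Pdgfrα+ library (1.93% and 1.55%) or GFP+ Pdgfrα+ replicate 1 (2.2%). Only *Mmp13* and *Mmp9* were called in every alternative run.

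The other comparisons called more of the genes. Among Pdgfrα- cells, 37 were higher and 4 lower in the GFP+ population, where 30.1% of all genes were higher and 23.6% lower, with medians of 2.55 for the 54 genes and 0.15 for all genes. Among GFP+ cells, 25 were higher and 5 lower in the Pdgfrα+ population, where 13.1% of all genes were higher and 11.1% lower, with medians of 0.73 and -0.02. Without the GFP- Pdgfrα- libraries that count was 33, with 27 higher and 6 lower, where 14.1% of all genes were higher and 11.4% lower. Among GFP- cells, 42 were higher and 4 lower in the Pdgfrα+ population, where 32.9% of all genes were higher and 26.8% lower, with medians of 3.1 and 0.17. Of the 4 lower genes, *Mmp8*, *Mmp9* and *Mmp12* lost their calls in some fits with 1 library left out, as given below. These comparisons share populations with each other, and those against the GFP- Pdgfrα- cells rest on the libraries whose composition stood apart. The part of that composition in the result was not tested. With quantile normalization the median of all genes changed sign, from 0.15 to -0.14 in the GFP comparison of Pdgfrα- cells and from 0.17 to -0.15 in the Pdgfrα comparison of GFP- cells. In the first, 31 of the 54 genes were then higher and 6 lower, where 24.4% of all genes were higher and 27.8% lower. In the second, 39 were higher and 5 lower, where 26.8% of all genes were higher and 32% lower.

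The difference between the GFP effect in Pdgfrα+ and that in Pdgfrα- cells was tested as an interaction. It was negative for 32 of the 54 genes and positive for 6, where 25.2% of all genes were called negative and 19.1% positive, and the median was -2.08 against -0.16 for all genes. The 6 genes called with a positive value were *Adamts3*, *Adamts18*, *Mmp9*, *Adam10*, *Mmp13* and *Mmp12*. For *Adamts3*, *Adam10* and *Mmp12* the GFP effect was negative in the Pdgfrα- cells, while for *Mmp13* it was positive in both and larger in the Pdgfrα+ cells.

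*Mmp13* encodes collagenase-3, which cleaves fibrillar collagens and is made by osteoblasts and hypertrophic chondrocytes. Its values were 12.5 and 9.55 in the GFP- Pdgfrα- cells, 68.6 and 70.6 in the GFP+ Pdgfrα- cells, 34.2 and 21.8 in the GFP- Pdgfrα+ cells and 675 and 546 in the GFP+ Pdgfrα+ cells. Both GFP+ Pdgfrα+ libraries were above all others, the GFP+ Pdgfrα- libraries came next, and no libraries of different populations overlapped. The mean was 21.8-fold higher in the GFP+ Pdgfrα+ than in the GFP- Pdgfrα+ cells (log2 fold change 4.42 ± 0.22 (SE), adjusted p = 9.32e-07, limma). It was also 8.77-fold higher in the GFP+ Pdgfrα+ than in the GFP+ Pdgfrα- cells (log2 fold change 3.11 ± 0.22 (SE), adjusted p = 1.64e-06, limma) and 6.31-fold higher in the GFP+ Pdgfrα- than in the GFP- Pdgfrα- cells (log2 fold change 2.56 ± 0.22 (SE), adjusted p = 1.07e-06, limma). The GFP effect was larger in the Pdgfrα+ cells by 1.86 on the log2 scale (adjusted p = 0.000433, limma). The gene (ENSMUSG00000050578) lies at chr9:7272514-7283333 on the plus strand of NCBIM37, and no exon of another annotated gene overlaps its exons.

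The GFP+ Pdgfrα+ cells also had the highest sums of osteoblast markers. The 6 markers (*Ibsp*, *Bglap*, *Dmp1*, *Spp1*, *Alpl* and *Ifitm5*), all in the table and led by *Spp1*, summed to 105 and 99.8 in the GFP- Pdgfrα- cells, 738 and 605 in the GFP+ Pdgfrα- cells, 391 and 250.4 in the GFP- Pdgfrα+ cells and 9152 and 6115 in the GFP+ Pdgfrα+ cells, with *Bglap* at 0 reads in both GFP- Pdgfrα- libraries. The 8 chondrocyte markers, led by *Col2a1*, summed to 609.8 and 1041 in the GFP- Pdgfrα- cells, 86 and 128 in the GFP+ Pdgfrα- cells, 631 and 2066 in the GFP- Pdgfrα+ cells and 341 and 416 in the GFP+ Pdgfrα+ cells, with *Matn1* at 0 reads in both GFP+ populations. The part of either cell type in the *Mmp13* values was not tested. In bulk RNA of sorted cells, fewer cells of a type and less RNA per cell cannot be told apart.

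*Mmp9* encodes gelatinase B, known from osteoclasts and neutrophils, and was low in all libraries. Its values were 5.89 and 2.71 in the GFP- Pdgfrα- cells, 2.55 and 7.33 in the GFP+ Pdgfrα- cells, 0.63 and 1.34 in the GFP- Pdgfrα+ cells and 16.4 and 26.6 in the GFP+ Pdgfrα+ cells, the last from 59 and 92 reads against 2 and 4 reads in the GFP- Pdgfrα+ cells. Both GFP+ Pdgfrα+ libraries exceeded the other 6. Relative to the GFP- Pdgfrα+ cells, the log2 fold change in the GFP+ Pdgfrα+ cells was 3.49 ± 0.50 (SE, adjusted p = 0.00192, limma). Since 1 GFP- Pdgfrα+ library was under the floor, its size depends on the pseudocount and ranged from 3.16 to 4.69 over the alternatives. Against the GFP+ Pdgfrα- cells it was 2.01 ± 0.50 (SE, adjusted p = 0.0119, limma). That call was lost without replicate 2 of the GFP+ Pdgfrα+ cells (adjusted p = 0.0955, limma) and without replicate 1 of the GFP+ Pdgfrα- cells (0.141), in a range of 0.00455 to 0.141 over all alternatives. *Mmp9* was lower in the GFP- Pdgfrα+ than in the GFP- Pdgfrα- cells, at a log2 fold change of -1.37 ± 0.50 (SE, adjusted p = 0.0322, limma). The adjusted p passed 0.05 without either GFP- Pdgfrα+ library (0.166 and 0.0539), without GFP- Pdgfrα- replicate 1 (0.219) and with voom (0.0628), in a range of 0.00555 to 0.219 (limma).

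Markers of myeloid cells and osteoclasts, which are known to make *Mmp9*, *Mmp8* or *Mmp12*, were also summed. Of 10 myeloid markers 9 were in the table (not *Camp*). Led by *Lyz2*, the sums were 87.2 and 86.2 in the GFP- Pdgfrα- cells, 30.2 and 34.9 in the GFP+ Pdgfrα- cells, 28.6 and 15.6 in the GFP- Pdgfrα+ cells and 7.04 and 24 in the GFP+ Pdgfrα+ cells, with *Ptprc* and *Elane* at 0 reads in both GFP- Pdgfrα+ libraries. Of 6 osteoclast markers only *Acp5*, *Calcr* and *Ctsk* were in the table. Their sums were 98.4 and 110.0 in the GFP- Pdgfrα- cells, 91.2 and 84 in the GFP+ Pdgfrα- cells, 51.3 and 56 in the GFP- Pdgfrα+ cells and 43.2 and 55.1 in the GFP+ Pdgfrα+ cells. *Acp5* made up most of the sum in the GFP- Pdgfrα- cells (97.2 and 108) and *Calcr* most of it in the GFP+ Pdgfrα- cells (85.8 and 78.3). *Ctsk* made up most of it in the GFP- Pdgfrα+ cells (49 and 51.8) and in the GFP+ Pdgfrα+ cells (39.9 and 51.3). The part of these cells in the values of *Mmp9* was not tested.

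*Mmp8*, the neutrophil collagenase, and *Mmp12*, the macrophage elastase, had their highest values in the GFP- Pdgfrα- cells, where the myeloid sum was also highest and its part was not tested. Not every myeloid marker followed that sum. *Cd68* had values of 0.718 and 6.48 in the GFP- Pdgfrα- cells and its highest mean in the GFP+ Pdgfrα- cells (5.71 and 7.85). *Mmp8* had values of 10.8 and 3.18 in the GFP- Pdgfrα- cells, 1.82 and 1.16 in the GFP+ Pdgfrα- cells, 0.63 and 1.34 in the GFP- Pdgfrα+ cells and 1.24 and 1.58 in the GFP+ Pdgfrα+ cells. *Mmp12* had values of 7.9 and 6.96 in the GFP- Pdgfrα- cells, 1.82 and 1.93 in the GFP+ Pdgfrα- cells, 1.89 and 2.82 in the GFP- Pdgfrα+ cells and 2.62 and 2.44 in the GFP+ Pdgfrα+ cells. For both genes each GFP- Pdgfrα- library was above the other 6, and *Mmp8*, above 2 in these libraries alone, passed the filter through them. For *Mmp8* the log2 fold change from the GFP- Pdgfrα- cells was -1.51 (adjusted p = 0.022, limma) in the GFP+ Pdgfrα- cells and -1.85 (adjusted p = 0.00649, limma) in the GFP- Pdgfrα+ cells, the second dependent on the pseudocount. Without replicate 1 of the GFP- Pdgfrα- cells, the higher of the pair, neither was called (adjusted p = 0.249 and 0.0911, limma). The first was also lost with DESeq2, a pseudocount of 0 or its 2 populations alone, and without either GFP+ Pdgfrα- library (0.056 and 0.128) and the second without replicate 1 of the GFP- Pdgfrα+ cells (0.0571), in ranges of 0.00332 to 0.249 and 0.00106 to 0.0911 over all alternatives. For *Mmp12* it was -1.55 (adjusted p = 0.00393, limma) in the GFP+ Pdgfrα- cells and -1.34 (adjusted p = 0.00833, limma) in the GFP- Pdgfrα+ cells. The second call was lost without replicate 1 of the GFP- Pdgfrα+ cells (0.0584) or of the GFP- Pdgfrα- cells (0.0516) and with DESeq2, in a range of 0.00103 to 0.0822. Exons of *Mmp12* overlap *Mmp1b* on the other strand. The libraries, made from amplified cDNA with a kit for DNA, do not mark the strand, so reads of overlapping genes cannot be told apart.

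*Mmp2* and *Mmp14* had high values in both Pdgfrα+ populations. *Mmp2* encodes gelatinase A, whose precursor is activated at the cell surface by the product of *Mmp14*, a membrane-type collagenase, in a complex with the *Timp2* product. *Mmp2* had values of 15.9 and 18.7 in the GFP- Pdgfrα- cells, 111 and 130.0 in the GFP+ Pdgfrα- cells, 674 and 665 in the GFP- Pdgfrα+ cells and 619.6 and 565 in the GFP+ Pdgfrα+ cells. *Mmp14* had values of 39.8 and 43.5 in the GFP- Pdgfrα- cells, 85.1 and 116 in the GFP+ Pdgfrα- cells, 531 and 512 in the GFP- Pdgfrα+ cells and 408 and 398 in the GFP+ Pdgfrα+ cells. For both genes the populations took the same order, with no overlap between libraries of different populations. In the GFP- cells *Mmp2* was 38.6-fold and *Mmp14* 12.5-fold higher with Pdgfrα (log2 fold changes 5.2 ± 0.14 and 3.62 ± 0.15 (SE), adjusted p = 6.85e-11 and 1.51e-09, limma). In the GFP+ cells the ratios were 4.91 and 4.01 (adjusted p = 5.7e-07 and 2.76e-06, limma). Between the Pdgfrα+ populations neither was called, with log2 fold changes of -0.18 (95% interval -0.48 to 0.12, adjusted p = 0.551, limma) for *Mmp2* and -0.37 (95% interval -0.70 to -0.04, adjusted p = 0.208, limma) for *Mmp14*.

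*Mmp11* encodes stromelysin-3, which is activated inside the cell by furin. It had values of 0.144 and 1.3 in the GFP- Pdgfrα- cells, 21.5 and 21.7 in the GFP+ Pdgfrα- cells, 20.3 and 16.8 in the GFP- Pdgfrα+ cells and 23.1 and 14.8 in the GFP+ Pdgfrα+ cells. The range of the GFP+ Pdgfrα+ libraries held those of the GFP+ Pdgfrα- and GFP- Pdgfrα+ cells, and all 6 lay above the GFP- Pdgfrα- cells, whose libraries held 0 and 5 reads. The log2 fold change against the GFP- Pdgfrα- cells was 3.80 (adjusted p = 4.38e-06, limma) for the GFP+ Pdgfrα- cells and 3.59 (adjusted p = 5.37e-06, limma) for the GFP- Pdgfrα+ cells, values that depend on the pseudocount. Exons of *Mmp11* overlap those of *Gm867* on the same strand, so that their reads cannot be told apart by position.

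The membrane-type MMPs other than *Mmp14* split by population. *Mmp16*, a transmembrane protease, was highest in the Pdgfrα+ populations, with values of 4.45 and 2.71 in the GFP- Pdgfrα- cells, 33.6 and 33.3 in the GFP+ Pdgfrα- cells, 157 and 121 in the GFP- Pdgfrα+ cells and 223 and 182 in the GFP+ Pdgfrα+ cells. It was 38.8-fold higher with Pdgfrα in the GFP- cells (log2 fold change 4.95 ± 0.22 (SE), adjusted p = 2.72e-09, limma) and 6.05-fold higher in the GFP+ cells (2.55 ± 0.22 (SE), adjusted p = 7.38e-06, limma). With GFP, *Mmp16* was also 9.34-fold higher in the Pdgfrα- cells (2.94 ± 0.22 (SE), adjusted p = 3.65e-07, limma). *Mmp15*, another transmembrane protease, and *Mmp17*, which is held by a glycosylphosphatidylinositol anchor, instead had their highest means in the GFP+ Pdgfrα- cells. *Mmp15* had values of 0.431 and 1.06 in the GFP- Pdgfrα- cells, 42.6 and 44.1 in the GFP+ Pdgfrα- cells, 3.4 and 4.6 in the GFP- Pdgfrα+ cells and 11.2 and 12.5 in the GFP+ Pdgfrα+ cells, with no overlap between populations. It was 3.66-fold lower in the GFP+ Pdgfrα+ than in the GFP+ Pdgfrα- cells (log2 fold change -1.79 ± 0.35 (SE), adjusted p = 0.00264, limma) and 2.96-fold higher in the GFP+ Pdgfrα+ than in the GFP- Pdgfrα+ cells (1.37 ± 0.35 (SE), adjusted p = 0.0416, limma).

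*Mmp17* had values of 0.431 and 2.48 in the GFP- Pdgfrα- cells, 22.9 and 25.9 in the GFP+ Pdgfrα- cells, 3.15 and 1.34 in the GFP- Pdgfrα+ cells and 8.98 and 10.5 in the GFP+ Pdgfrα+ cells. Both GFP+ populations were above both GFP- populations in every library. The log2 fold change with GFP was 3.51 ± 0.47 (SE, adjusted p = 4.71e-05, limma) in the Pdgfrα- cells and 1.78 ± 0.47 (SE, adjusted p = 0.049, limma) in the Pdgfrα+ cells. Between the GFP+ populations it was not called (log2 fold change with Pdgfrα -1.24, 95% interval -2.26 to -0.22, adjusted p = 0.0756, limma). In the Pdgfrα+ cells the calls of *Mmp15* and *Mmp17* were both lost without any 1 of the 6 libraries of the populations with a marker, with pseudocounts of 0.1 and 0, and with the 2 populations alone, and that of *Mmp17* also with voom, quantile normalization or no mean-variance trend. For *Mmp15* the adjusted p was 0.119 and 0.154 without replicates 1 and 2 of the GFP+ Pdgfrα+ cells, 0.227 and 0.119 without those of the GFP- Pdgfrα+ cells and 0.0938 and 0.0947 without those of the GFP+ Pdgfrα- cells (limma). For *Mmp17* it was 0.143 and 0.177, 0.0945 and 0.313, and 0.104 and 0.104, in the same order (limma). Over all alternatives the adjusted p ranged from 0.013 to 0.227 for *Mmp15* and from 0.0134 to 0.313 for *Mmp17*. *Mmp17* shares exon positions with the annotated gene AC114657.1 on the same strand. The remaining MMP genes, *Mmp19*, *Mmp23* and *Mmp28*, had values of 0.354 to 1.29 in the GFP- Pdgfrα- cells, 0.121 to 5.79 in the GFP+ Pdgfrα- cells, 5.17 to 46.5 in the GFP- Pdgfrα+ cells and 1.52 to 27.8 in the GFP+ Pdgfrα+ cells.

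**Figure D2:**
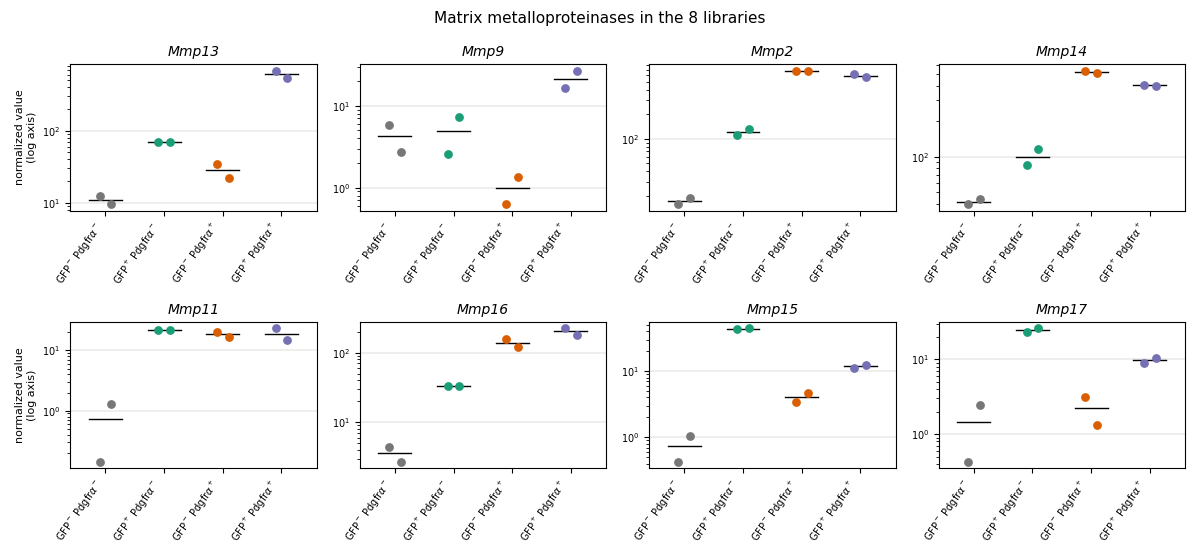
Normalized values (log axis) of 8 MMP genes in the 4 populations; each point is a library and each line the mean of 2 libraries. *Mmp13* and *Mmp9* are highest in the GFP+ Pdgfrα+ cells, *Mmp2* and *Mmp14* in both Pdgfrα+ populations, and *Mmp15* and *Mmp17* in the GFP+ Pdgfrα- cells.

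Schwann lineage, muscle precursor and pericyte markers were highest in the GFP+ Pdgfrα- cells. The 7 Schwann lineage markers, led by *Erbb3*, summed to 24 and 39.5 in the GFP- Pdgfrα- cells, 425 and 397 in the GFP+ Pdgfrα- cells, 20 and 38.8 in the GFP- Pdgfrα+ cells and 104 and 69.4 in the GFP+ Pdgfrα+ cells, with *Foxd3* at 0 reads in both GFP- Pdgfrα- libraries. The 5 muscle precursor markers, led by *Pax7*, summed to 9.05 and 6.72 in the GFP- Pdgfrα- cells, 651 and 718 in the GFP+ Pdgfrα- cells, 16.5 and 16.8 in the GFP- Pdgfrα+ cells and 46.8 and 36.7 in the GFP+ Pdgfrα+ cells. The 6 pericyte and smooth muscle markers, led by *Rgs5*, summed to 68.4 and 121 in the GFP- Pdgfrα- cells, 1810.1 and 2347 in the GFP+ Pdgfrα- cells, 351 and 364 in the GFP- Pdgfrα+ cells and 446 and 358 in the GFP+ Pdgfrα+ cells. All markers of these 3 lists were in the table. Their part in the values of *Mmp15*, *Mmp17* and the other genes that were highest in the GFP+ Pdgfrα- cells was not tested.

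ADAM proteins combine a protease-like domain with a disintegrin domain. In the GFP comparison of Pdgfrα+ cells limma called 0 of the 14 genes, though some fits with 1 library left out called members of the family. At an unadjusted p under 0.05 it took 4 as higher and 2 as lower, edgeR called 2 higher and 2 lower, DESeq2 called 1 lower, and voom called 2 higher and 2 lower. Over all genes these rules took, in the same order, 10.1% as higher and 8.5% as lower, 3.31% and 2.31%, 3.5% and 2.43%, and 3.28% and 3.38%. Among the Pdgfrα- cells 7 ADAM genes were higher and 1 lower in the GFP+ population (all genes 30.1% and 23.6%). There edgeR, DESeq2 and voom each called 5 higher, with 2, 1 and 2 lower. In either direction these tools called 53.0%, 45.6% and 54.5% of all genes. With Pdgfrα, 5 were higher and 1 lower in the GFP+ cells (all genes 13.1% and 11.1%), and 9 higher and 1 lower in the GFP- cells (all genes 32.9% and 26.8%). In some fits with 1 library left out, fewer than 5 were higher in the GFP+ cells. The family counts below can be read against the same shares.

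*Adam10* and *Adam17* encode the main sheddases, which release Notch, cytokine and growth factor ectodomains. *Adam10* had values of 213 and 211 in the GFP- Pdgfrα- cells, 74.7 and 63.9 in the GFP+ Pdgfrα- cells, 63.2 and 59.3 in the GFP- Pdgfrα+ cells and 81.9 and 79.8 in the GFP+ Pdgfrα+ cells. It was the gene of this set with the highest value per kb of exon in the GFP- Pdgfrα- cells (43), and both of their libraries were above the other 6. It was 3.06-fold lower in the GFP+ Pdgfrα- cells (log2 fold change -1.60 ± 0.14 (SE), adjusted p = 1.5e-06, limma) and 3.46-fold lower in the GFP- Pdgfrα+ cells (-1.78 ± 0.14 (SE), adjusted p = 4.25e-07, limma). *Adam17* had values of 97.8 and 69.7 in the GFP- Pdgfrα- cells, 60.1 and 59.6 in the GFP+ Pdgfrα- cells, 61.1 and 69.6 in the GFP- Pdgfrα+ cells and 62 and 75.5 in the GFP+ Pdgfrα+ cells, and replicate 2 of the GFP- Pdgfrα- cells lay within the range of the GFP+ Pdgfrα+ cells. Relative to the GFP- Pdgfrα- cells it was called neither in the GFP+ Pdgfrα- cells, at a log2 value of -0.46 (adjusted p = 0.0581, limma), nor in the GFP- Pdgfrα+ cells, at -0.33 (adjusted p = 0.146, limma). Without that replicate both were called (adjusted p = 0.01 and 0.024, limma), as was the first with edgeR (0.0233) and voom (0.026), in ranges of 0.01 to 0.391 and 0.024 to 0.714 over all alternatives. Exons of *Adam17* overlap *Iah1* on the other strand.

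The 4 erythroid markers, all in the table and led by *Hbb-b1*, were highest in the population where *Adam10* was. Their sums were 6661 and 12032 in the GFP- Pdgfrα- cells, 81.3 and 49.1 in the GFP+ Pdgfrα- cells, 34.8 and 28.5 in the GFP- Pdgfrα+ cells and 23.5 and 27.9 in the GFP+ Pdgfrα+ cells. Their part in the values of *Adam10* was not tested. All 4 populations had been sorted as negative for Ter119, a gate against erythroid cells. Tetraspanins and inactive rhomboids carry the *Adam10* and *Adam17* products to the cell surface. Of 8 such genes 7 were in the table, and *Tspan33*, a partner of *Adam10*, had the largest called change. *Tspan33* had values of 136 and 148 in the GFP- Pdgfrα- cells, 1.34 and 1.67 in the GFP+ Pdgfrα- cells, 0.63 and 0.446 in the GFP- Pdgfrα+ cells and 0.138 and 1.87 in the GFP+ Pdgfrα+ cells. Both GFP- Pdgfrα- libraries were above all others and, as the only values above 2, carried the gene through the filter. Relative to them the log2 fold change was -5.84 (adjusted p = 4.48e-07, limma) in the GFP+ Pdgfrα- cells and -6.54 (adjusted p = 1.1e-07, limma) in the GFP- Pdgfrα+ cells, the second dependent on the pseudocount. Among the 7 genes the calls were 2 higher and 1 lower with GFP in Pdgfrα+ cells, 4 and 1 with GFP in Pdgfrα- cells, 1 lower with Pdgfrα in GFP+ cells, and 2 and 3 with Pdgfrα in GFP- cells, with medians of 0.24, 1.2, -0.09 and 0.69. Of all genes 3.22%, 30.1%, 13.1% and 32.9% were called higher in these comparisons, and 2.13%, 23.6%, 11.1% and 26.8% lower. The share of all genes was above that of the list for higher calls in the last comparison and for lower calls in the second. In the first, edgeR and voom called 1 higher and DESeq2 0, and leaving out 1 library gave 0 to 2 higher and 0 to 1 lower.

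*Adam12* and *Adam19* encode the meltrins, which are active proteases of mesenchymal tissues. *Adam12* had values of 1.58 and 8.84 in the GFP- Pdgfrα- cells, 109 and 114 in the GFP+ Pdgfrα- cells, 157 and 128 in the GFP- Pdgfrα+ cells and 443 and 346 in the GFP+ Pdgfrα+ cells. Its GFP+ Pdgfrα+ libraries were above all others, and the pair of GFP- Pdgfrα- libraries was the most uneven. It was 21.5-fold higher in the GFP+ Pdgfrα- than in the GFP- Pdgfrα- cells (log2 fold change 4.48 ± 0.43 (SE), adjusted p = 3.11e-06, limma), with log2 values of 3.52 to 5.45 over the alternatives. The GFP+ Pdgfrα+ cells exceeded the GFP+ Pdgfrα- cells by 1.80 ± 0.43 on the log2 scale (SE, adjusted p = 0.01, limma). That call was lost without replicate 1 of the GFP+ Pdgfrα+ cells (adjusted p = 0.0803, limma) or either replicate of the GFP+ Pdgfrα- cells (0.0916 and 0.0772), and with DESeq2, no mean-variance trend or a pseudocount of 0, in a range of 3.09e-06 to 0.0916. Between the Pdgfrα+ populations *Adam12* was not called (log2 fold change 1.46, adjusted p = 0.0796, limma). With the GFP- Pdgfrα- libraries left out it was (adjusted p = 0.000108, limma), and also when their replicate 1 (0.000199) or replicate 2 (0.000232) alone was dropped. On all 8 libraries it was called with voom (0.000148), edgeR (0.00517) and quantile normalization (0.046), in a range of 0.000108 to 0.367.

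*Adam19* had values of 7.04 and 9.79 in the GFP- Pdgfrα- cells, 224 and 257 in the GFP+ Pdgfrα- cells, 224 and 244 in the GFP- Pdgfrα+ cells and 255 and 263 in the GFP+ Pdgfrα+ cells. It separated the GFP- Pdgfrα- cells from the other 3 populations, of which the GFP+ Pdgfrα- libraries overlapped with those of the GFP- Pdgfrα+ and GFP+ Pdgfrα+ cells. The fold was 28.6 for the GFP+ Pdgfrα- cells (log2 fold change 4.69 ± 0.16 (SE), adjusted p = 8.97e-10, limma) and 27.9 for the GFP- Pdgfrα+ cells (4.66 ± 0.16 (SE), adjusted p = 3.84e-10, limma). Its exons overlap *Gm16033* and *Gm16034* on the other strand.

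*Adam33* and *Adam23* were highest in different populations. *Adam33*, a catalytically active member, had values of 1.29 and 3.89 in the GFP- Pdgfrα- cells, 1.34 and 1.16 in the GFP+ Pdgfrα- cells, 261 and 244 in the GFP- Pdgfrα+ cells and 129.7 and 128 in the GFP+ Pdgfrα+ cells. All 4 Pdgfrα+ libraries were above all 4 Pdgfrα- libraries. The means differed 97.4-fold in the GFP- cells (log2 fold change 6.24 ± 0.31 (SE), adjusted p = 6.72e-09, limma) and 103-fold in the GFP+ cells (5.85 ± 0.31 (SE), adjusted p = 2.83e-07, limma). Over the alternatives the log2 values ranged from 5.69 to 6.81 and from 5.80 to 6.86. *Adam33* had 4 and 16 reads in the GFP- Pdgfrα- and 5 and 4 in the GFP+ Pdgfrα- libraries. With so few, its fitted values depend on the pseudocount and differ from the ratios of means. Between the Pdgfrα+ populations it was not called (log2 fold change -0.97, adjusted p = 0.107, limma), but it was with the GFP- Pdgfrα- libraries left out (adjusted p = 0.00494, limma) and without replicate 1 (0.0102) or replicate 2 (0.0128) of those cells. On all 8 libraries it was called with edgeR (0.00535), DESeq2 (0.000293) and voom (0.00041), in a range of 0.000293 to 0.403. *Adam23*, which has no protease activity and is known from the nervous system, had values of 1.58 and 2.48 in the GFP- Pdgfrα- cells, 88 and 96.3 in the GFP+ Pdgfrα- cells, 12.2 and 18.3 in the GFP- Pdgfrα+ cells and 26.7 and 23.7 in the GFP+ Pdgfrα+ cells. The GFP+ Pdgfrα- libraries were above all others. It was 45.5-fold higher in the GFP+ Pdgfrα- than in the GFP- Pdgfrα- cells (log2 fold change 4.96 ± 0.28 (SE), adjusted p = 2.92e-08, limma) and 3.66-fold lower in the GFP+ Pdgfrα+ than in the GFP+ Pdgfrα- cells (-1.83 ± 0.28 (SE), adjusted p = 0.000496, limma). Of the other ADAM genes, *Adam9*, *Adam15* and *Adam22* had values of 1.53 to 9.33 in the GFP- Pdgfrα- cells and 28 to 92.1 in the GFP+ Pdgfrα+ cells. *Adam1a*, *Adam4*, *Adam5*, *Adam8* and *Adam11* were no higher than 7.91 in any library.

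Most ADAMTS genes were lowest in the GFP- Pdgfrα- cells. With GFP in Pdgfrα- cells, 15 of 18 were higher and 1 lower, and with Pdgfrα in GFP- cells 16 of 18 were higher. With Pdgfrα in GFP+ cells 6 were higher and 2 lower. Between the Pdgfrα+ populations limma called only *Adamts18*, while 4 genes were called higher with DESeq2 and with quantile normalization, and 5 with edgeR and with voom. The limma count also fell in some fits with 1 library left out and rose in others. With quantile normalization 3.11% of all genes were higher and 2.3% lower. The interaction was negative for 15 genes of the family and positive for 2, where 25.2% of all genes were called negative and 19.1% positive.

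*Adamts2*, *Adamts3* and *Adamts14* encode the enzymes that remove the amino-terminal propeptide of fibrillar procollagens. *Adamts2* had values of 4.45 and 5.31 in the GFP- Pdgfrα- cells, 38.7 and 41.3 in the GFP+ Pdgfrα- cells, 221 and 209.5 in the GFP- Pdgfrα+ cells and 363 and 286 in the GFP+ Pdgfrα+ cells, in an order without overlap. It was 44.1-fold higher with Pdgfrα in the GFP- cells (log2 fold change 5.2 ± 0.17 (SE), adjusted p = 2.33e-10, limma) and 8.11-fold higher in the GFP+ cells (2.98 ± 0.17 (SE), adjusted p = 4.55e-07, limma). *Adamts3* took another order, with values of 43.8 and 33.8 in the GFP- Pdgfrα- cells, 3.52 and 0.643 in the GFP+ Pdgfrα- cells, 29.9 and 21.2 in the GFP- Pdgfrα+ cells and 21.1 and 28.9 in the GFP+ Pdgfrα+ cells. The GFP+ Pdgfrα- libraries, with 14 and 2 reads, were below the other 6. With GFP the log2 fold change was -3.86 ± 0.42 in the Pdgfrα- cells (SE, adjusted p = 8.11e-06, limma), and with Pdgfrα it was 3.24 ± 0.42 in the GFP+ cells (SE, adjusted p = 0.000157, limma), values that depend on the pseudocount.

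The proteoglycan-cleaving members include *Adamts1*, *Adamts4*, *Adamts5*, *Adamts8*, *Adamts9*, *Adamts15* and *Adamts20*, whose products cut versican or aggrecan. *Adamts1* had values of 9.91 and 19.9 in the GFP- Pdgfrα- cells, 206 and 203 in the GFP+ Pdgfrα- cells, 191 and 161 in the GFP- Pdgfrα+ cells and 195 and 181 in the GFP+ Pdgfrα+ cells, and *Adamts5*, the main aggrecanase of mouse cartilage, had values of 2.44 and 3.42 in the GFP- Pdgfrα- cells, 139 and 166 in the GFP+ Pdgfrα- cells, 120.4 and 103 in the GFP- Pdgfrα+ cells and 176 and 169 in the GFP+ Pdgfrα+ cells. Both separated the GFP- Pdgfrα- cells from the other 3 populations. *Adamts1* was 13.7-fold higher in the GFP+ Pdgfrα- than in the GFP- Pdgfrα- cells (log2 fold change 3.76 ± 0.24 (SE), adjusted p = 9.25e-08, limma), and *Adamts5* 51.9-fold (5.29 ± 0.18 (SE), adjusted p = 8.84e-10, limma). In the GFP- Pdgfrα+ cells the ratios to the GFP- Pdgfrα- cells were 11.8 and 38.1 (adjusted p = 9.66e-08 and 7.27e-10, limma).

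*Adamts4*, another aggrecanase, had values of 1.29 and 0.59 in the GFP- Pdgfrα- cells, 42.4 and 29.2 in the GFP+ Pdgfrα- cells, 39.5 and 31.3 in the GFP- Pdgfrα+ cells and 52.9 and 47 in the GFP+ Pdgfrα+ cells. *Adamts15* had values of 1.58 and 0.59 in the GFP- Pdgfrα- cells, 39.2 and 44.6 in the GFP+ Pdgfrα- cells, 40 and 33.4 in the GFP- Pdgfrα+ cells and 34.4 and 31.2 in the GFP+ Pdgfrα+ cells. In the GFP- Pdgfrα- cells these rested on 4 and 2 reads for *Adamts4* and 5 and 2 reads for *Adamts15*, so that the fitted values depend on the pseudocount. Over the GFP- Pdgfrα- cells the log2 fold changes in the GFP+ Pdgfrα- cells were 4.24 (adjusted p = 1.44e-07, limma) for *Adamts4* and 4.40 (adjusted p = 9.67e-08, limma) for *Adamts15*. *Adamts9* took a graded order, with values of 5.6 and 10 in the GFP- Pdgfrα- cells, 61.1 and 65 in the GFP+ Pdgfrα- cells, 83.8 and 75 in the GFP- Pdgfrα+ cells and 146 and 134 in the GFP+ Pdgfrα+ cells. It was 2.22-fold higher in the GFP+ Pdgfrα+ than in the GFP+ Pdgfrα- cells (log2 fold change 1.14 ± 0.22 (SE), adjusted p = 0.00307, limma) and 10.2-fold higher in the GFP- Pdgfrα+ than in the GFP- Pdgfrα- cells (3.23 ± 0.22 (SE), adjusted p = 1.19e-07, limma). Exons of *Adamts9* overlap *A730049H05Rik* and *Gm15737* on the other strand.

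*Adamts8* and *Adamts20* were highest in the GFP+ Pdgfrα- cells. *Adamts8* had 0 and 0 reads in the GFP- Pdgfrα- libraries and values of 40.2 and 47.2 in the GFP+ Pdgfrα- cells, 1.39 and 3.42 in the GFP- Pdgfrα+ cells and 2.35 and 4.74 in the GFP+ Pdgfrα+ cells. Taken against the floor of 3 reads, it was at least 47.7-fold higher in the GFP+ Pdgfrα- than in the GFP- Pdgfrα- cells (adjusted p = 7.36e-07, limma). It was 12.3-fold lower in the GFP+ Pdgfrα+ than in the GFP+ Pdgfrα- cells (log2 fold change -3.35 ± 0.43 (SE), adjusted p = 0.000167, limma). In the GFP- Pdgfrα+ cells it was at least 2.62-fold higher than in the GFP- Pdgfrα- cells (adjusted p = 0.00936, limma), a call lost without replicate 2 of the GFP- Pdgfrα+ cells (adjusted p = 0.0978, limma), in a range of 0.00053 to 0.0978. *Adamts20*, which is known from pigment cell migration, had values of 1.58 and 1.77 in the GFP- Pdgfrα- cells, 56.5 and 88.6 in the GFP+ Pdgfrα- cells, 7.19 and 6.68 in the GFP- Pdgfrα+ cells and 12 and 12.8 in the GFP+ Pdgfrα+ cells. Both GFP+ Pdgfrα- libraries were above the other 6. It was 43.3-fold higher in the GFP+ Pdgfrα- than in the GFP- Pdgfrα- cells (log2 fold change 4.75 ± 0.31 (SE), adjusted p = 1.12e-07, limma) and 5.85-fold lower in the GFP+ Pdgfrα+ than in the GFP+ Pdgfrα- cells (-2.42 ± 0.31 (SE), adjusted p = 0.000155, limma).

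*Adamts10*, whose product acts in fibrillin microfibrils, and *Adamts12*, whose product cleaves cartilage oligomeric matrix protein, were high in all 3 populations with a marker. *Adamts10* had values of 3.88 and 2.24 in the GFP- Pdgfrα- cells, 80.2 and 81.9 in the GFP+ Pdgfrα- cells, 130.2 and 137 in the GFP- Pdgfrα+ cells and 113 and 117 in the GFP+ Pdgfrα+ cells. *Adamts12* had values of 3.02 and 3.18 in the GFP- Pdgfrα- cells, 92.1 and 93.3 in the GFP+ Pdgfrα- cells, 169.8 and 174 in the GFP- Pdgfrα+ cells and 205 and 210.0 in the GFP+ Pdgfrα+ cells. No GFP- Pdgfrα- library came near the others for either gene. The GFP- Pdgfrα+ mean divided by the GFP- Pdgfrα- mean was 43.7 for *Adamts10* (log2 fold change 5.08 ± 0.20 (SE), adjusted p = 1.08e-09, limma) and 55.4 for *Adamts12* (5.40 ± 0.15 (SE), adjusted p = 8.83e-11, limma). *Adamts12* was also 2.24-fold higher in the GFP+ Pdgfrα+ than in the GFP+ Pdgfrα- cells (log2 fold change 1.15 ± 0.15 (SE), adjusted p = 0.000172, limma).

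*Adamts18* and *Adamts19* were near the floor in the Pdgfrα- cells. *Adamts18* had 0 and 6, 3 and 0 and 1 and 2 reads in the GFP- Pdgfrα-, GFP+ Pdgfrα- and GFP- Pdgfrα+ libraries, and 96 and 31 reads in the GFP+ Pdgfrα+ libraries, whose values were 26.7 and 9.06. Only these 2 values were above 2, so the gene passed the filter through the population in which it was higher. Every GFP+ Pdgfrα+ library was above the other 6, though the 2 differed from each other. The fitted log2 fold change over the GFP- Pdgfrα+ cells was 3.43 ± 0.55 (SE, adjusted p = 0.00365, limma) and depends on the pseudocount, with a range of 2.70 to 5.42 over the alternatives. The call was lost without replicate 1 of the GFP- Pdgfrα+ cells (adjusted p = 0.0556, limma) and with a pseudocount of 0 (0.0803), in a range of 0.000432 to 0.0803. *Adamts19* had values of 0.144 and 0.825 in the GFP- Pdgfrα- cells, 0.364 and 0.9 in the GFP+ Pdgfrα- cells, 16.5 and 16.5 in the GFP- Pdgfrα+ cells and 22.8 and 17.1 in the GFP+ Pdgfrα+ cells, and all 4 Pdgfrα+ libraries were above all 4 others. Its fitted log2 fold change with Pdgfrα was 3.60 (adjusted p = 8.13e-06, limma) in the GFP- cells and 3.69 (adjusted p = 4.25e-05, limma) in the GFP+ cells, both against populations with at most 3 reads a library. Only Pdgfrα+ libraries had values above 2, so *Adamts19* also passed the filter through the populations in which it was higher. The other ADAMTS genes were *Adamts6*, *Adamts7*, *Adamts14*, *Adamts16* and *Adamts17*. Their values were 0.118 to 2.73 in the GFP- Pdgfrα- cells and 3.73 to 39.5 in the GFP+ Pdgfrα- cells. They were 4.9 to 30.6 in the GFP- Pdgfrα+ cells and 6.21 to 53.9 in the GFP+ Pdgfrα+ cells.

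ADAMTS-like proteins resemble ADAMTS enzymes without the protease domain and bind matrix microfibrils. All 5 genes were called higher with Pdgfrα, both in GFP+ and in GFP- cells (all genes 13.1% and 32.9%). In GFP+ cells DESeq2 called 4, leaving out 1 library gave 3 to 5, and the adjusted p of *Adamtsl1* and *Adamtsl5* was 0.0337 and 0.0441 (limma). *Adamtsl3* had values of 3.59 and 1.53 in the GFP- Pdgfrα- cells, 0.607 and 2.96 in the GFP+ Pdgfrα- cells, 170.1 and 208 in the GFP- Pdgfrα+ cells and 129.7 and 142 in the GFP+ Pdgfrα+ cells, and *Adamtsl4* had values of 2.73 and 2.48 in the GFP- Pdgfrα- cells, 27.1 and 17.6 in the GFP+ Pdgfrα- cells, 196 and 194 in the GFP- Pdgfrα+ cells and 69.5 and 82.1 in the GFP+ Pdgfrα+ cells. Every Pdgfrα+ library was above every Pdgfrα- library for both. In the GFP- cells *Adamtsl3* was 73.8-fold higher with Pdgfrα (log2 fold change 5.79 ± 0.39 (SE), adjusted p = 9.53e-08, limma) and *Adamtsl4* 74.9-fold (5.77 ± 0.23 (SE), adjusted p = 9.41e-10, limma). *Adamtsl4* was 2.57-fold lower in the GFP+ Pdgfrα+ than in the GFP- Pdgfrα+ cells (log2 fold change -1.36 ± 0.23 (SE), adjusted p = 0.00456, limma). That call was lost without replicate 1 of the GFP+ Pdgfrα+ cells (adjusted p = 0.057, limma) and without replicate 1 (0.0689) or 2 (0.0713) of the GFP- Pdgfrα+ cells, in a range of 2.78e-06 to 0.0713.

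*Adamtsl2*, which is mutated in geleophysic dysplasia, was expressed at a lower level. It was above 2 in Pdgfrα+ libraries alone, and so passed the filter through the populations in which it was called higher with Pdgfrα. Its reads numbered 0 and 0 for the GFP- Pdgfrα- and 3 and 1 for the GFP+ Pdgfrα- cells, with values of 5.67 and 5.79 in the GFP- Pdgfrα+ cells and 18.4 and 16 in the GFP+ Pdgfrα+ cells. The last were above the other 6 libraries, 2.99-fold over the GFP- Pdgfrα+ cells (log2 fold change 1.43 ± 0.38 (SE), adjusted p = 0.0497, limma). It passed 0.05 with the replicate number as a block (adjusted p = 0.057, limma), with edgeR (0.0733) and DESeq2 (0.219), with pseudocounts of 0.1 and 0, without the GFP- Pdgfrα- cells, with the 2 populations alone, and without any 1 of the 8 libraries, in a range of 0.0183 to 0.308. Left out singly, replicates 1 and 2 gave 0.154 and 0.0989 for the GFP+ Pdgfrα+ cells, 0.196 and 0.187 for the GFP- Pdgfrα+ cells, 0.0728 and 0.0727 for the GFP+ Pdgfrα- cells, and 0.059 and 0.0589 for the GFP- Pdgfrα- cells. *Adamtsl1* and *Adamtsl5* had values of 0.59 to 2.95 in the GFP- Pdgfrα- cells and 17.8 to 49.2 in the GFP- Pdgfrα+ cells.

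Tendon markers were highest in the GFP- Pdgfrα+ cells. The 5 markers, all in the table and led by *Fmod*, summed to 56.2 and 88.3 in the GFP- Pdgfrα- cells, 18.6 and 19.9 in the GFP+ Pdgfrα- cells, 1589 and 1677 in the GFP- Pdgfrα+ cells and 182 and 156 in the GFP+ Pdgfrα+ cells. Their part in the values of *Adamtsl3*, *Adamtsl4* and *Adam33* was not tested. The 5 endothelial markers, all in the table and led by *Tek*, summed to 30.6 and 113 in the GFP- Pdgfrα- cells, 45.3 and 92.2 in the GFP+ Pdgfrα- cells, 49 and 51.2 in the GFP- Pdgfrα+ cells and 47.6 and 69.4 in the GFP+ Pdgfrα+ cells and overlapped among the populations.

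The 4 inhibitors differed from one another across the populations. *Timp1*, a secreted inhibitor that is weak against membrane-type MMPs, had values of 1.58 and 1.53 in the GFP- Pdgfrα- cells, 5.95 and 5.53 in the GFP+ Pdgfrα- cells, 24.1 and 17.4 in the GFP- Pdgfrα+ cells and 78.9 and 64 in the GFP+ Pdgfrα+ cells, without overlap. It was 3.45-fold higher in the GFP+ Pdgfrα+ than in the GFP- Pdgfrα+ cells (log2 fold change 1.75 ± 0.29 (SE), adjusted p = 0.00491, limma) and 12.4-fold higher than in the GFP+ Pdgfrα- cells (3.42 ± 0.29 (SE), adjusted p = 7.06e-06, limma). The first of these calls was lost without replicate 1 of the GFP+ Pdgfrα+ cells (adjusted p = 0.0655, limma) and without replicate 2 of the GFP- Pdgfrα+ cells (0.0781), in a range of 5.07e-05 to 0.0781.

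*Timp2*, which inhibits MMPs and also takes part in activating the *Mmp2* product, had values of 21.4 and 33.8 in the GFP- Pdgfrα- cells, 277 and 295 in the GFP+ Pdgfrα- cells, 1055 and 877 in the GFP- Pdgfrα+ cells and 596 and 540.3 in the GFP+ Pdgfrα+ cells, again without overlap. *Timp3*, which binds to the matrix and inhibits ADAM and ADAMTS enzymes as well, had values of 23.1 and 48 in the GFP- Pdgfrα- cells, 484 and 577 in the GFP+ Pdgfrα- cells, 610.3 and 523 in the GFP- Pdgfrα+ cells and 288 and 235 in the GFP+ Pdgfrα+ cells. For *Timp3* the GFP+ Pdgfrα- and GFP- Pdgfrα+ libraries overlapped and were above those of the GFP+ Pdgfrα+ cells, which were above those of the GFP- Pdgfrα- cells. In the GFP+ Pdgfrα+ cells *Timp2* was 1.7-fold lower than in the GFP- Pdgfrα+ cells (log2 fold change -0.76 ± 0.18 (SE), adjusted p = 0.0336, limma) and *Timp3* 2.17-fold lower (-1.12 ± 0.26 (SE), adjusted p = 0.0258, limma). Both calls were lost without a mean-variance trend (adjusted p = 0.189 for *Timp2* and 0.152 for *Timp3*, limma). They were also lost with pseudocounts of 0.1 and 0, and that of *Timp2* with quantile normalization. Leaving out single libraries of the populations with a marker also ended them. For *Timp2* replicates 1 and 2 gave 0.111 and 0.17 for the GFP+ Pdgfrα+ cells, 0.272 and 0.111 for the GFP- Pdgfrα+ cells and 0.0826 and 0.0821 for the GFP+ Pdgfrα- cells, in a range of 0.000323 to 0.272 over all alternatives. For *Timp3* they gave 0.0848 and 0.164, 0.213 and 0.128, and 0.0701 and 0.0704, in a range of 4.22e-05 to 0.213.

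In GFP+ cells *Timp2* and *Timp3* took different directions with Pdgfrα. *Timp2* was 1.99-fold higher (log2 fold change 0.99 ± 0.18 (SE), adjusted p = 0.00213, limma) and *Timp3* 2.03-fold lower (-1.02 ± 0.26 (SE), adjusted p = 0.0126, limma). The *Timp3* call was lost without replicate 2 of the GFP+ Pdgfrα+ cells (adjusted p = 0.105, limma) and without replicate 1 (0.0611) or 2 (0.124) of the GFP+ Pdgfrα- cells, and without a mean-variance trend, in a range of 0.000104 to 0.124. In GFP- cells *Timp2* was 35-fold and *Timp3* 15.9-fold higher with Pdgfrα (log2 fold changes 5.11 ± 0.18 and 4.04 ± 0.26 (SE), adjusted p = 4.78e-10 and 5.35e-08, limma). Exons of *Timp3* overlap *Syn3* on the other strand. *Timp4* was near the floor, with values of 0.431 and 0.354 in the GFP- Pdgfrα- cells, 3.04 and 1.67 in the GFP+ Pdgfrα- cells, 3.15 and 0.743 in the GFP- Pdgfrα+ cells and 0.414 and 0.431 in the GFP+ Pdgfrα+ cells. Its fitted log2 fold change with GFP in the Pdgfrα- cells, 1.24 (adjusted p = 0.035, limma), rested on 12 and 6 against 1 and 1 reads. The call was lost without GFP+ Pdgfrα- replicate 1 (0.192) and without replicate 1 (0.0996) or 2 (0.122) of the GFP- Pdgfrα- cells, and with DESeq2 (0.15), edgeR (0.0612), voom (0.0511) and quantile normalization (0.347), in a range of 0.0163 to 0.347.

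**Figure D3:**
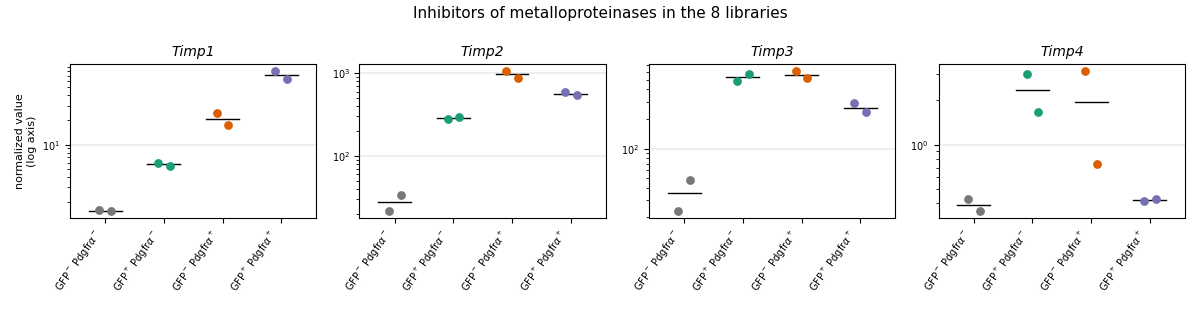
Normalized values (log axis) of the 4 TIMP genes in the 4 populations; each point is a library and each line the mean of 2 libraries. *Timp1* is highest in the GFP+ Pdgfrα+ cells, *Timp2* in the GFP- Pdgfrα+ cells, and *Timp3* in the GFP+ Pdgfrα- and GFP- Pdgfrα+ cells.

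Levels were compared between genes as normalized value per kb of exon. The length merges all annotated exons of a gene and is not that of its expressed transcripts, so the order of genes is approximate. In the GFP+ Pdgfrα+ cells the highest means per kb were those of *Mmp13* (228), *Mmp2* (195), *Mmp14* (155), *Timp2* (146) and *Timp1* (80.4). In the GFP- Pdgfrα+ cells they were those of *Timp2* (248), *Mmp2* (220.4) and *Mmp14* (201), with *Mmp13* at 10.5. The GFP+ Pdgfrα- cells were led by *Timp2* (73.4) and *Timp3* (65.1), ahead of *Mmp2* (39.7). Summed over the 13 MMP genes, the values per kb of the pairs of libraries were 34.1 and 31.9 for GFP- Pdgfrα-, 127 and 151 for GFP+ Pdgfrα-, 489 and 464 for GFP- Pdgfrα+ and 677 and 599 for GFP+ Pdgfrα+ cells. The TIMP genes summed to 10.4 and 16.6, to 139 and 154, to 375 and 309.5 and to 277 and 239.8 in the same order. The MMP sum was thus highest in the GFP+ Pdgfrα+ cells and the TIMP sum in the GFP- Pdgfrα+ cells, a difference in levels that was not tested. *Mmp13* made up 37.3% and 34.1% of the MMP sums of the GFP+ Pdgfrα+ cells. Without it they were 425 and 395, below 476 and 456 in the GFP- Pdgfrα+ cells.

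The systems that activate, inhibit and clear these proteases were described by lists of other genes. Counts of calls are given for GFP in Pdgfrα+ cells, GFP in Pdgfrα- cells, Pdgfrα in GFP+ cells and Pdgfrα in GFP- cells, in that order, and medians of log2 fold changes follow. Of all genes 3.22%, 30.1%, 13.1% and 32.9% were called higher and 2.13%, 23.6%, 11.1% and 26.8% lower. Of 11 genes of the plasminogen system and the activating convertases, 9 were in the table, and 2, 7, 6 and 7 were higher, with 1 (*Plau*) lower among GFP+ cells and medians of 0.22, 1.45, 1.70 and 2.19. In the first comparison edgeR and voom called 3, and leaving out 1 library gave 1 to 2. *Pcsk5*, a convertase, followed Pdgfrα, with values of 0.431 and 4.36 in the GFP- Pdgfrα- cells, 12.3 and 10.4 in the GFP+ Pdgfrα- cells, 102 and 132 in the GFP- Pdgfrα+ cells and 106 and 130.4 in the GFP+ Pdgfrα+ cells (log2 fold change 3.27 ± 0.45 (SE), adjusted p = 0.000276, limma, in the GFP+ cells). *Plau*, the urokinase that activates plasminogen, was lower with Pdgfrα in the GFP+ cells (-2.64 ± 0.48 (SE), adjusted p = 0.00181, limma), with values of 26.3 and 27.7 in the GFP+ Pdgfrα- cells and 1.8 and 6.18 in the GFP+ Pdgfrα+ cells.

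Of 7 other inhibitors, all were in the table, and 1, 3, 3 and 4 were higher, with 1 lower in the first comparison and medians of -0.10, 0.47, 0.97 and 0.98. Taken at their lower bounds where a population had 0 reads, the last 2 medians were 0.71 and 0.70. In the first comparison edgeR and DESeq2 called 0 higher, and leaving out 1 library gave 0 to 2 higher and 0 to 1 lower. The lower gene was *Spock2*, whose call was lost without any 1 of the 4 Pdgfrα+ libraries and without a mean-variance trend (adjusted p of 0.00131 to 0.242 over all alternatives, limma). In the last, edgeR and DESeq2 called 3 and 2. *Spock2*, a testican, had values of 3.59 and 3.89 in the GFP- Pdgfrα- cells, 15.9 and 16.9 in the GFP+ Pdgfrα- cells, 253 and 327 in the GFP- Pdgfrα+ cells and 147 and 169 in the GFP+ Pdgfrα+ cells, and was higher with Pdgfrα in the GFP+ cells (3.19 ± 0.19 (SE), adjusted p = 5.52e-07, limma).

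The 3 measured uptake receptors of 4 listed, which clear collagen fragments, proteases and inhibitors, were all higher in the last 3 comparisons, with medians of -0.37, 2.15, 1.78 and 5.0. In the first, limma called 0; at an unadjusted p under 0.05 it took 2 as lower, voom called 2 lower, edgeR and DESeq2 called 0, and leaving out 1 library gave 0 to 1 lower. *Mrc2*, the collagen uptake receptor, had values of 3.02 and 12.1 in the GFP- Pdgfrα- cells, 23.9 and 40.8 in the GFP+ Pdgfrα- cells, 218 and 245 in the GFP- Pdgfrα+ cells and 239 and 241 in the GFP+ Pdgfrα+ cells. Its Pdgfrα+ populations overlapped.

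Of 13 metalloproteinases and procollagen enhancers outside the symbols chosen, 9 were in the table. The counts were 3, 6, 8 and 9 higher, with 1 lower with GFP in Pdgfrα+ and 3 lower with GFP in Pdgfrα- cells, and medians of 0.34, 2.37, 2.60 and 4.30. With GFP in Pdgfrα- cells edgeR and DESeq2 also called 3 lower, and voom called 2. The limma count of lower genes there fell in some fits with 1 library left out. In the first comparison edgeR called 4 higher and 1 lower, DESeq2 and voom 4 and 2, and with 1 library left out 1 to 4 were higher and 1 to 2 lower. *Bmp1*, the procollagen C-proteinase, had values of 4.74 and 4.83 in the GFP- Pdgfrα- cells, 102 and 143 in the GFP+ Pdgfrα- cells, 154 and 182 in the GFP- Pdgfrα+ cells and 383 and 256 in the GFP+ Pdgfrα+ cells. *Phex*, an endopeptidase of osteoblasts and osteocytes, was higher in the GFP+ Pdgfrα+ than in the GFP- Pdgfrα+ cells (3.20 ± 0.20 (SE), adjusted p = 4.68e-06, limma), with values of 147 and 148 against 16 and 14.4. *Pappa2*, a protease of insulin-like growth factor binding proteins, was lower (-3.46 ± 0.35 (SE), adjusted p = 0.0002, limma), with 8.42 and 9.06 against 119 and 94.9.

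The 6 cysteine cathepsins were all in the table. In the last 3 comparisons 3, 4 and 3 were higher, and 1, *Ctsb*, was lower with GFP in Pdgfrα- cells. In the first, limma called 0; at an unadjusted p under 0.05 it took 1 as higher and 1 as lower, edgeR, DESeq2 and voom each called 1 higher, and leaving out 1 library gave 0 to 1. The medians were -0.18, 0.95, 0.79 and 1.59. *Ctsb* had values of 227 and 281 in the GFP- Pdgfrα- cells, 98.2 and 99.9 in the GFP+ Pdgfrα- cells, 231 and 214 in the GFP- Pdgfrα+ cells and 185 and 198 in the GFP+ Pdgfrα+ cells. *Ctsk*, the collagenolytic cathepsin, was higher with Pdgfrα in both the GFP+ (3.14 ± 0.35 (SE), adjusted p = 4.57e-05, limma) and the GFP- cells (4.69 ± 0.35 (SE), adjusted p = 1.96e-07, limma).

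Of the 18 matrix substrates, all in the table, 2, 12, 16 and 16 were higher. Lower were 4 with GFP in Pdgfrα+ cells, 5 with GFP in Pdgfrα- cells and 1 with Pdgfrα in GFP- cells. The medians were -0.37, 1.77, 2.59 and 5.04. In the first comparison voom called 3 higher and 8 lower, DESeq2 3 and 5, edgeR 2 and 4, and limma with 1 library left out 2 and 3 to 8. *Col1a1*, a substrate of collagenases, had values of 435 and 560.2 in the GFP- Pdgfrα- cells, 3099 and 2562 in the GFP+ Pdgfrα- cells, 16841 and 15352 in the GFP- Pdgfrα+ cells and 51184 and 38311 in the GFP+ Pdgfrα+ cells, and was higher in the GFP+ Pdgfrα+ than in the GFP- Pdgfrα+ cells (1.46 ± 0.18 (SE), adjusted p = 0.000569, limma), as was *Mmp13*. *Col3a1*, of reticular fibres, was instead lower there, with 7607 and 7310.5 against 11278 and 10779.5. *Comp*, a substrate of *Adamts12*, was lower in the GFP+ Pdgfrα+ than in the GFP- Pdgfrα+ cells (-3.14 ± 0.32 (SE), adjusted p = 0.000181, limma), with values of 8.42 and 7.62 against 68.5 and 89.5. *Vcan*, versican, had values of 15.9 and 32.2 in the GFP- Pdgfrα- cells, 576 and 615 in the GFP+ Pdgfrα- cells, 3914 and 3279 in the GFP- Pdgfrα+ cells and 2309 and 2589.7 in the GFP+ Pdgfrα+ cells (log2 fold change with Pdgfrα in the GFP- cells 7.24 ± 0.24 (SE), adjusted p = 2.18e-10, limma).

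Of 17 membrane substrates of ADAMs, 14 were in the table, and 3, 9, 4 and 12 were higher. With GFP in Pdgfrα+ cells 1 was lower and with Pdgfrα in GFP+ cells 3, with medians of -0.28, 0.98, 0.33 and 1.97. Taken at its lower bounds, the second median was 0.96. In the first comparison edgeR, DESeq2 and voom called 2 higher and 1 lower, and with 1 library left out 1 to 4 were higher and 0 to 1 lower. The lower gene, *Hbegf*, a growth factor, was lost without any 1 of the 4 Pdgfrα+ libraries (adjusted p of 0.00686 to 0.138 over all alternatives, limma). *Cdh2*, N-cadherin, a substrate of *Adam10*, was higher in the GFP+ Pdgfrα+ than in the GFP- Pdgfrα+ cells (2.68 ± 0.21 (SE), adjusted p = 3.34e-05, limma), with 367 and 255 against 51.6 and 42.6.

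Promoters were searched because several of the genes were higher together in the GFP+ Pdgfrα+ cells. Promoter windows of RefSeq (GRCm38.p6, the 250 bases before each start) were found for 33 of the 54 genes, as 37 windows, and for 5 of the 7 genes called higher in the GFP+ Pdgfrα+ than in the GFP- Pdgfrα+ cells, not for *Mmp9* and *Mmp17*. The 3 motifs below were chosen by name and searched on both strands. The AP-1 motif TGANTCA was in 3 of the 37 windows (8.11%) and in 2217 of 32851 windows of all genes (6.75%). The Runx motif, ACCACA or its reverse complement TGTGGT, was in 6 of 37 (16.2%) and in 4614 of all windows (14.0%). The E-box, CAGGTG or its reverse complement CACCTG, was in 9 of 37 (24.3%) and in 5657 of all windows (17.2%). No 2 of these motifs overlap in the windows shown. Of the 5 windows of genes called higher, that of *Mmp13* held the AP-1 and the Runx motif and that of *Mmp15* the E-box. In the *Mmp13* window TGACTCA lies at bases 35 to 29 and ACCACA at bases 118 to 113 before the start. The first window below, that of *Mmp13*, which had the largest fitted log2(value + 1) difference between the Pdgfrα+ populations, is given with those of *Timp1* and *Adamts18*, which were called in the same direction and held none of the 3 motifs. They are at chr9:7272264-7272513 (plus strand), chrX:20869916-20870165 (plus strand) and chr8:113848840-113849089 (minus strand) of GRCm38, and capitals mark motifs. A match is a description of the letters in the window and was not tested as a binding site.
*Mmp13*: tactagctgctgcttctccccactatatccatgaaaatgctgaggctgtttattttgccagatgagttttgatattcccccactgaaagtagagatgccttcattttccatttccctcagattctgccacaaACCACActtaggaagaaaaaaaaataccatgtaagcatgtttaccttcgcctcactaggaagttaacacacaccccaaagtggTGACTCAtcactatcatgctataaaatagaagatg
*Timp1*: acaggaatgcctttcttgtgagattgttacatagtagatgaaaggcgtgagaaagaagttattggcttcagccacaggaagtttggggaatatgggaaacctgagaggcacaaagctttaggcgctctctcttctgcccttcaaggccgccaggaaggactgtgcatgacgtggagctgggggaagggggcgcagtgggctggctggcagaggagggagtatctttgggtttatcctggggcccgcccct
*Adamts18*: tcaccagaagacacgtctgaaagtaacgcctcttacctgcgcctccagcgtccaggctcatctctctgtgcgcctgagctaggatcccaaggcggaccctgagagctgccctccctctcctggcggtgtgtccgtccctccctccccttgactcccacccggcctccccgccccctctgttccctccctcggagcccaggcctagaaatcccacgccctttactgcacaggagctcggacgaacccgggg

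*Mmp13*, *Mmp12* and *Mmp8* lie on the plus strand of chromosome 9, at chr9:7272514-7283333, chr9:7344381-7369499 and chr9:7558429-7568486 (NCBIM37). *Mmp13* was highest in the GFP+ Pdgfrα+ cells and the other 2 in the GFP- Pdgfrα- cells.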

How the data were processed

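Bulk RNA sequencing was described for 8 libraries. Per the labels, the authors trimmed reads with cutadapt, counted them with RSEM 1.17 on the NCBIM37 build (Ensembl 65), kept genes by counts per 1e6 reads in at least 2 samples and used limma's voom for normalization. The deposited values are a normalized signal, made by the authors as reads plus 0.5 per 1e6 of the library's effective size. Whole reads were recovered from 100% of the values within a tolerance of 0.1. limma 3.58.1 in R 4.3.3 was fitted on log2(value + 1) of all 15880 genes with 1 coefficient a population, 4 residual degrees of freedom and a mean-variance trend, and p-values were adjusted by Benjamini-Hochberg over all genes. The smallest p that exact two-sided permutations of 2 and 2 libraries can give is 0.333. Alternatives were edgeR 4.0.16, DESeq2 1.42.0 and voom on the recovered reads, pseudocounts of 0.1 and 0, a filter on low values, no trend, quantile normalization, the compared populations alone, the replicate number as a block, other thresholds and leaving out each library. A population left with 1 library is assumed to vary like the others. A fit without the GFP- Pdgfrα- population was chosen after seeing the data. The replicate number was read as a shared pool of pups; correlations of the replicates' deviations between populations were 0.00433 to 0.0812. The libraries do not mark the strand. Tables and plots were made with Python 3.11.15, pandas 2.3.3 and matplotlib 3.10.9. The members and lists were chosen with earlier results of these data known. Genes described by name were 20 chosen by role, up to 6 called genes in each direction of each comparison with the largest change and no overlap between libraries (for the interaction, the 6 largest), and the 10 with the highest value per kb. Of the other lists they were among the 3 highest means and the largest called changes.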

Additional observations from a re-analysis of the deposited data

Results flagged for a closer look

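The GFP effect differed between the Pdgfrα+ and the Pdgfrα- cells, by the interaction test of limma at an adjusted p of at most 0.05, for 28 of the 36 genes described by name, where 44.3% of all genes were called. Some of the 36 were chosen for a large interaction or change, so that this count is no estimate for the set. Each value is the log2 effect of GFP in the Pdgfrα+ cells minus that in the Pdgfrα- cells, with 2 libraries in each population. Both effects share 1 fit, and the second rests on the GFP- Pdgfrα- libraries, whose composition stood apart; its part was not tested. The difference was positive for *Adamts3* (3.83), *Adamts18* (3.66), *Mmp9* (3.39), *Adam10* (2.00), *Mmp13* (1.86) and *Mmp12* (1.64). Among MMP genes it was negative for *Mmp11* (-3.80), *Mmp15* (-3.32), *Mmp2* (-2.91), *Mmp16* (-2.39) and *Mmp14* (-1.61). Among ADAM genes it was negative for *Adam19* (-4.55), *Adam23* (-4.25) and *Adam12* (-3.03). Among ADAMTS genes it was negative for *Adamts8* (-4.87), *Adamts5* (-4.66), *Adamts10* (-4.58), *Adamts15* (-4.56), *Adamts12* (-4.24), *Adamts20* (-3.99), *Adamts4* (-3.75), *Adamts1* (-3.67), *Adamts2* (-2.23) and *Adamts9* (-2.10). The other negative values were those of *Adamtsl4* (-4.02), *Timp3* (-5.06), *Timp2* (-4.12) and *Timp4* (-2.16). Values of genes with 3 reads or fewer in a library, such as *Adamts8*, *Adamts18* and *Timp4*, depend on the pseudocount. The call of *Mmp12* was lost without either replicate of the GFP+ Pdgfrα- cells (adjusted p = 0.0614 and 0.0556, limma) or of the GFP- Pdgfrα- cells (0.075 and 0.0517) and without replicate 1 of the GFP- Pdgfrα+ cells (0.0793). It missed 0.05 also with DESeq2 (0.171), edgeR (0.0619) and a pseudocount of 0 (0.0552), in a range of 0.00484 to 0.171 over all alternatives. That of *Timp4* was lost without replicate 1 of the GFP+ Pdgfrα- cells (0.0647) or of the GFP- Pdgfrα+ cells (0.0601), as it was with DESeq2 (0.0566) and quantile normalization (0.103), in a range of 0.00472 to 0.103. That of *Adamts18* was lost with voom (adjusted p = 0.0515, limma), in a range of 0.001 to 0.0515.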

How the results depend on the processing

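The number of the 54 genes called between the Pdgfrα+ populations, 10, depended most on the processing. The share of all genes called is given with each count, 5.35% for these 10. It was 17 with edgeR (5.62%), 18 with voom (6.66%), 17 at an adjusted p of at most 0.10 (8.54%), 17 without the GFP- Pdgfrα- population (7.09%, an alternative chosen after seeing the data), 5 with a pseudocount of 0.1 (3.75%) and 4 with a pseudocount of 0 (3.24%), and 3 to 16 with 1 library left out (1.55% to 6.82%). The cause was not tested. Leaving out 1 library gave 37 to 41 genes in the GFP comparison of Pdgfrα- cells (44.4% to 54.6%), 23 to 33 (13.6% to 25.5%) and 41 to 46 (51.3% to 61.3%) in the Pdgfrα comparisons of GFP+ and GFP- cells, 35 to 41 (37.4% to 41.8%) for the interaction and 45 to 49 (58.3% to 66.9%) for any difference. Of the 170 pairs of a gene and a comparison that were followed through the alternatives, 138 had the same direction and the same side of 0.05 under every alternative run. Over all pairs and alternatives this held 2921 times. The call was lost 149 times and gained 18 times, and no direction reversed. With the replicate number as a block, of the named calls among the 54 genes only that of *Adamtsl2* was lost, between the Pdgfrα+ populations (adjusted p = 0.057, limma). With quantile normalization the all-gene median of the interaction went from -0.16 to 0.10, changing sign. Between populations at 3 reads or fewer a library, a difference was not detectable at this depth.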
